A study of Homo sapiens with 3 samples.

Results

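The endoplasmic reticulum chaperones examined here were 9 listed genes (HSPA5, HSP90B1, HYOU1, CALR, CANX, P4HB, PDIA3, PDIA4 and PDIA6), chosen by name and not by a threshold on any measured value. Earlier results of these data were known when the genes were chosen. Ribosome peaks were given to these genes through the RefSeq transcript in each peak's annotation, which placed 310 of the 46819 listed peaks on them, and all 9 had a peak among the 3760 genes with peaks. The study profiled ribosomes in HEK293T, a line derived from human embryonic kidney, to ask how a medulloblastoma-associated substitution in the RNA helicase DDX3X affects translation. Cells were transiently transfected for 24 h with an empty pCDNA3.1 vector, with FLAG-tagged WT DDX3X or with FLAG-tagged DDX3X G325E, and each construct gave 1 library. The labels describe harringtonine at 2 µg/ml for 90 s followed by cycloheximide at 100 µg/ml in all 3 samples, whereas the methods of the study name cycloheximide alone. The cells kept their own DDX3X gene, beside which the constructs were expressed.

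Proteins that enter the secretory pathway fold inside the endoplasmic reticulum. Hsp70- and Hsp90-type chaperones bind unfolded chains there, calreticulin and calnexin hold glycoproteins through their sugars, and protein disulfide isomerases form and rearrange the disulfide bonds. The messages for these proteins are read by ribosomes docked on the membrane, and most of these genes are induced together when unfolded protein accumulates.

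A peak in these lists is a stretch of transcript where the coverage of ribosome-protected fragments passed the authors' cut-off, with no height or read count given. The lists give no read depth, and the number of peaks stands for how much of a message passed that cut-off, not for the number of ribosomes on it. By the read totals the study gives, G325E was the library with the fewest mapped reads after duplicates were removed and wild-type the one with the most, and the part of depth in the peak numbers below was not tested. The lists held 11219 peaks in vector, 19920 in wild-type and 15680 under G325E. Peak numbers skipped 1952 values in vector and 3099 in wild-type but 0 in G325E, and the skipped peaks were not analysed here. DDX3X itself had 0 peaks in vector, 32 in wild-type and 9 under G325E. The labels give the cell type of HEK293T as neuronal, and 10 of 13 neuronal markers had 0 peaks in all 3 lists. The exceptions, TUBB3, NEFL and NEFM, had peaks in every list. TUBB3 had 8 peaks in vector, 6 in wild-type and 5 under G325E, NEFL had 7, 10 and 13, and NEFM had 16, 19 and 33. Of 6 epithelial or kidney line markers, 1 had peaks in vector, 4 in wild-type and 2 under G325E. VIM had 18, 20 and 19 peaks in that order, KRT18 had 0, 11 and 0, CDH2 had 0, 11 and 5, KRT8 had 0, 1 and 0, and PAX2 and EPCAM had 0 throughout.

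The chaperones together had 102 peaks in vector, 141 in wild-type and 67 under G325E. These made up 0.909% of the vector list (95% Wilson interval 0.750 to 1.10), 0.708% of the wild-type list (0.601 to 0.834) and 0.427% of the G325E list (0.337 to 0.542). The G325E interval lay below both others. All intervals given here cover counting error only. They take each peak as an independent count, although peaks cluster within genes and 1 stretch of coverage can be split into several peaks. The intervals may therefore be too narrow. With 1 library per construct no difference could be set against the spread between cultures, so no test was made.

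**Figure D1:**
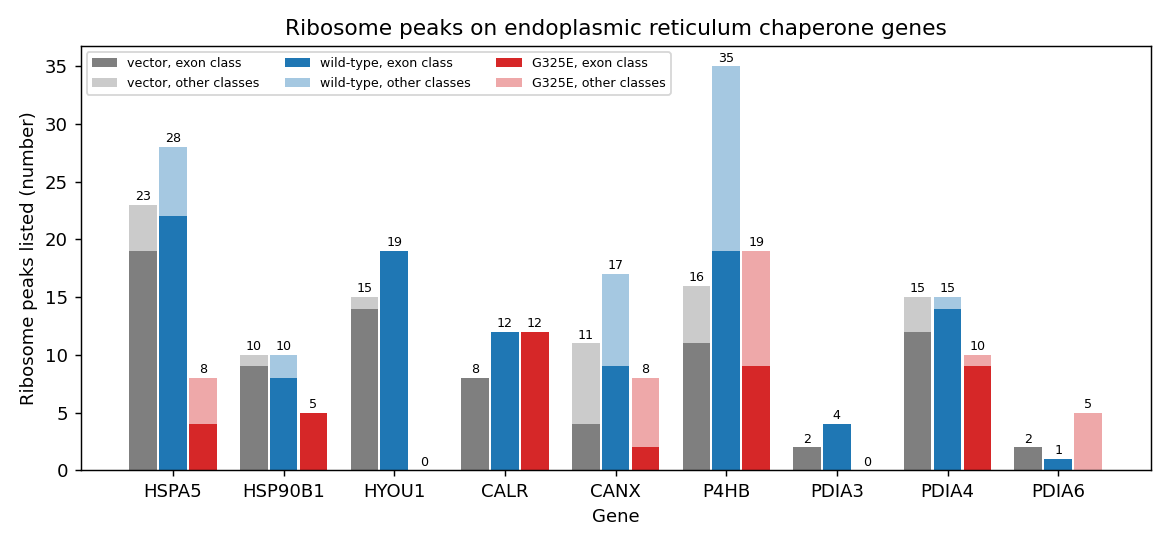
Number of ribosome peaks listed for each of the 9 chaperone genes (vertical axis) in vector (grey), wild-type (blue) and G325E (red), 1 library each. Dark bars are peaks in the exon class and pale bars all other classes, with the total printed above each bar. HYOU1 and PDIA3 had 0 peaks in G325E, HSPA5 went from 23 and 28 peaks to 8, and CALR had 12 peaks in both wild-type and G325E.

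To compare lists of unequal length, peak numbers were scaled to the mean length of the lists. On that scale the chaperones stood at 66.7 peaks in G325E against 110.5 in wild-type, a log2 ratio of −0.73 (95% exact conditional interval −1.17 to −0.30), and against 141.9 in vector, a log2 ratio of −1.09 (−1.56 to −0.63). Neither interval reached 0, but with lists scaled by their peaks in the 5′-UTR, exon and 3′-UTR classes alone the ratio to wild-type was −0.36 (−0.80 to 0.07), which did. Wild-type against vector gave −0.36 (−0.74 to 0.02), and this direction depended on scaling, since it was 0.47 with peak numbers as listed.

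By role, the lower number in G325E was largest among the Hsp-type chaperones. HSPA5, HSP90B1 and HYOU1 together had 48 peaks in vector, 57 in wild-type and 13 under G325E, which is 3.45-fold lower after scaling in G325E than in wild-type (log2 ratio −1.79, −2.78 to −0.90) and 5.16-fold lower than in vector (−2.37, −3.38 to −1.46). The lectin chaperones CALR and CANX had 19, 29 and 20 peaks, with a log2 ratio of G325E to wild-type of −0.19 (−1.09 to 0.68). The 4 disulfide isomerases had 35, 55 and 34 peaks, with a ratio of −0.35 (−1.01 to 0.29). Both of these intervals included 0, and the difference between roles was not tested. Genes within a role differed. HSPA5 went from 28 wild-type peaks to 8 and HYOU1 from 19 to 0, but HSP90B1 had a log2 ratio of −0.66. Among the lectin chaperones this ratio was 0.35 for CALR and −0.74 for CANX.

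A gene was called higher or lower where its scaled peak number differed by at least 2-fold between lists in which it had a peak. From wild-type to G325E, 1 of 7 such chaperones was called lower (HSPA5) and 1 higher (PDIA6), against 10.7% and 20.2% of 1848 genes. Their median log2 ratio was −0.54, where that of all genes was 0.35. From vector to G325E, 3 of 7 were called lower (HSPA5, HSP90B1 and PDIA4) and 0 higher, against 21.3% and 11.3% of 1490 genes, with medians of −0.94 for the chaperones and −0.48 for all genes. From vector to wild-type, 1 of 9 was called lower (PDIA6) and 0 higher, against 21.0% and 5.38% of 1990 genes, with medians of −0.49 and −0.61. The G325E calls and medians leave out HYOU1 and PDIA3, which had 0 peaks in G325E, so they cover 7 of 9 chaperones. Over all genes they leave out a larger part. Of 3149 genes with wild-type peaks 41.3% had 0 in G325E, and of 2099 with vector peaks 29.0%. Of the 7 chaperones with at least 10 wild-type peaks, 1 had 0 in G325E, where the share over all such genes was 20.1% of 582.

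**Figure D2:**
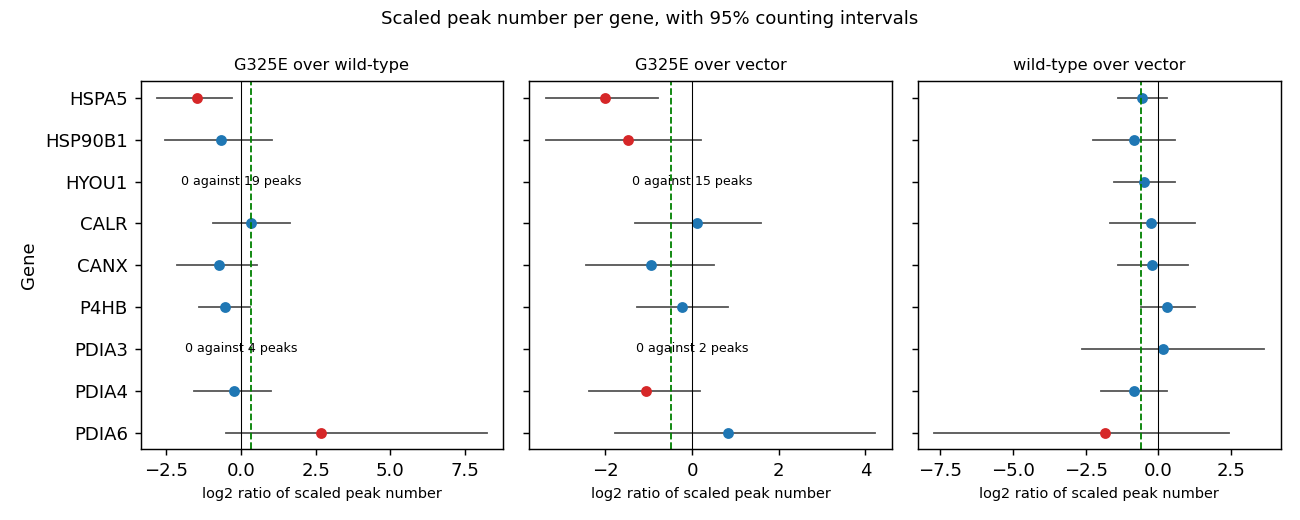
The log2 ratio of scaled peak number for each chaperone gene in the 3 comparisons, with 95% exact conditional intervals as lines. Red points passed 2-fold, blue points did not, the dashed green line is the median of all genes, and each panel has its own horizontal range. HSPA5 lay at −1.46 against wild-type and −2.01 against vector, and the wide interval of PDIA6, from −0.49 to 8.23 against wild-type, reflects 5 peaks against 1.

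HSPA5 (BiP, ENSG00000044574, GRCh37 chromosome 9, 127997132 to 128003622, minus strand, 8 exons) is the main Hsp70 of the endoplasmic reticulum. It had 23 peaks in vector, 28 in wild-type and 8 under G325E. The G325E number was lower than both others. After scaling it was 2.76-fold lower than in wild-type (log2 ratio −1.46, −2.81 to −0.29) and 4.02-fold lower than in vector (−2.01, −3.38 to −0.80), while wild-type against vector gave −0.54 (−1.39 to 0.32). In vector and wild-type, coding peaks ran along the message from codon 22 to codon 640 and from codon 24 to codon 637 of 654. In G325E, coding peaks were centred at codons 22, 55, 90 and 136 alone, and each overlapped a peak of both other lists. Peaks covered 42.2% of the coding sequence in vector, 49.3% in wild-type and 11.9% under G325E. The vector list skipped 3 numbers directly on the 3′ side of its HSPA5 peaks and the wild-type list 2 on the 5′ side.

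Peaks before the HSPA5 start codon were largely shared. A peak of 29 bases centred 157 bases before the start codon had the same ends in all 3 lists, and a second lay 84, 81 and 84 bases before it. The wild-type list alone had a peak over the start codon, of 29 bases and centred 10 bases before it. With 2 of 21, 3 of 25 and 2 of 6 peaks in the 5′-UTR class (of the 5′-UTR, exon and 3′-UTR classes), the 5′-UTR share was 9.52%, 12.0% and 33.3%. The higher share in G325E thus came with the same number of 5′-UTR peaks as in vector and fewer coding peaks. The reference sequence around the HSPA5 start codon (chr9:128003385-128003414, minus strand, start codon in capitals) is shown with that of P4HB (chr17:79818327-79818356, minus strand), since these were the only chaperone start codons under a peak.
HSPA5 start codon: gctggcaagATGaagctctccctggtggcc
P4HB start codon: gtgtccgacATGctgcgccgcgctctgctg

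The first and second 50% of the HSPA5 coding sequence had a GC content of 51.9% and 43.4%. GC content was taken over 31 bases around the centre of each peak. Vector coding peaks that overlapped a G325E peak averaged 56.5% (SD 10.0, 4 peaks), and those that did not averaged 44.1% (SD 8.68, 15 peaks). For wild-type these were 58.7% (SD 11.7, 5 peaks) and 47.7% (SD 9.23, 18 peaks). To show what such peaks look like, the first vector coding peak of 20 to 30 bases with an overlapping G325E peak is set beside the first without one, with G and C in capitals. These examples were chosen by that rule after the values had been seen. The GC content given with an example's position is that of its printed bases, not of the 31 bases used for the means. In HSPA5 the examples lay at codon 136 (chr9:128002525-128002547, 47.8% GC) and codon 122 (chr9:128002566-128002588, 34.8% GC), both on the minus strand. Over 31 bases they had 41.9% and 32.3%, so the first lay below the 44.1% mean of vector peaks without an overlap.
HSPA5 codon 136, also in G325E: tGGaGGtGGGCaaaCaaaGaCat
HSPA5 codon 122, not in G325E: GtGGttGaaaaGaaaaCtaaaCC

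HSP90B1 (GRP94, the Hsp90 of the endoplasmic reticulum, ENSG00000166598, GRCh37 chromosome 12, 104324188 to 104341704, plus strand, 18 exons) had 10 peaks in vector, 10 in wild-type and 5 under G325E. The log2 scaled ratio of G325E was −0.66 to wild-type (−2.55 to 1.03) and −1.48 to vector (−3.38 to 0.20), and both intervals included 0. Coding peaks clustered near the 3′ end of the message. They were centred between codons 604 and 797 of 803 in vector and, apart from 1 at codon 287, between 606 and 797 in wild-type. Both of these lists include a peak of 1 base at codon 631 on the strand opposite to the gene. In G325E the coding peaks lay between 722 and 796. Of the 5 G325E peaks, 3 overlapped peaks of both other lists, and those at codons 768 and 791 overlapped none. The vector list skipped 1 number between its peaks at codons 751 and 797, and the wild-type list 1 number between 752 and 797, so the part of skipped peaks in that difference was not tested. The example peaks lay at codon 722 (chr12:104340612-104340633, 54.5% GC) and codon 626 (chr12:104337072-104337097, 38.5% GC), on the plus strand.
HSP90B1 codon 722, also in G325E: GaaaCaGCaaCGCttCGGtCaG
HSP90B1 codon 626, not in G325E: tGaaaGataaaGCCCttaaGGaCaaG

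HSP90B1 did not show the GC split of HSPA5, although its example peaks did. Vector coding peaks that overlapped a G325E peak averaged 39.8% GC (SD 8.12, 3 peaks) and the others 42.9% (SD 7.84, 7 peaks). Its whole coding sequence had 41.3% GC, the lowest of the 9 genes.

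HYOU1 (an Hsp110-type partner of HSPA5 that promotes its nucleotide exchange, ENSG00000149428, GRCh37 chromosome 11, 118914899 to 118927916, minus strand, 26 exons) had 15 peaks in vector, 19 in wild-type and 0 under G325E. With G325E set to a floor of 3 peaks and the other lists as counted, G325E was at least 4.99-fold lower than wild-type and at least 6.99-fold lower than vector after scaling. With the counting error of both lists, the upper end of the interval for the log2 ratio was −1.88 and −2.33. No number was skipped within or directly beside the HYOU1 peaks in vector or wild-type. These peaks lay in the second part of the message, between codons 567 and 989 of 999 in vector and between 568 and 991 in wild-type. Of the 15 vector peaks, 15 overlapped a wild-type peak, and 14 of the 19 in wild-type overlapped one in vector. Wild-type peaks at codons 876, 928, 950 and 959 lay in a stretch with no vector peak. The HYOU1 peaks had a mean GC content of 57.2% in vector (SD 7.95) and 56.5% in wild-type (SD 8.21), near the 55.5% of its coding sequence and the 59.0% and 58.2% of all genes' coding peaks in those lists. In the G325E list, all genes' coding peaks averaged 67.9%. All genes' coding peaks without a G325E overlap averaged 54.6% in vector and 55.3% in wild-type. Over all chaperone coding peaks without a G325E overlap, HYOU1 included, these means were 50.6% and 50.8%. The example of a peak absent from G325E, at codon 777 (chr11:118918994-118919019, minus strand), had 69.2% GC.
HYOU1 codon 777, not in G325E: GGGaaGCtCaGCGCCGCatCCaCCtG

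**Figure D3:**
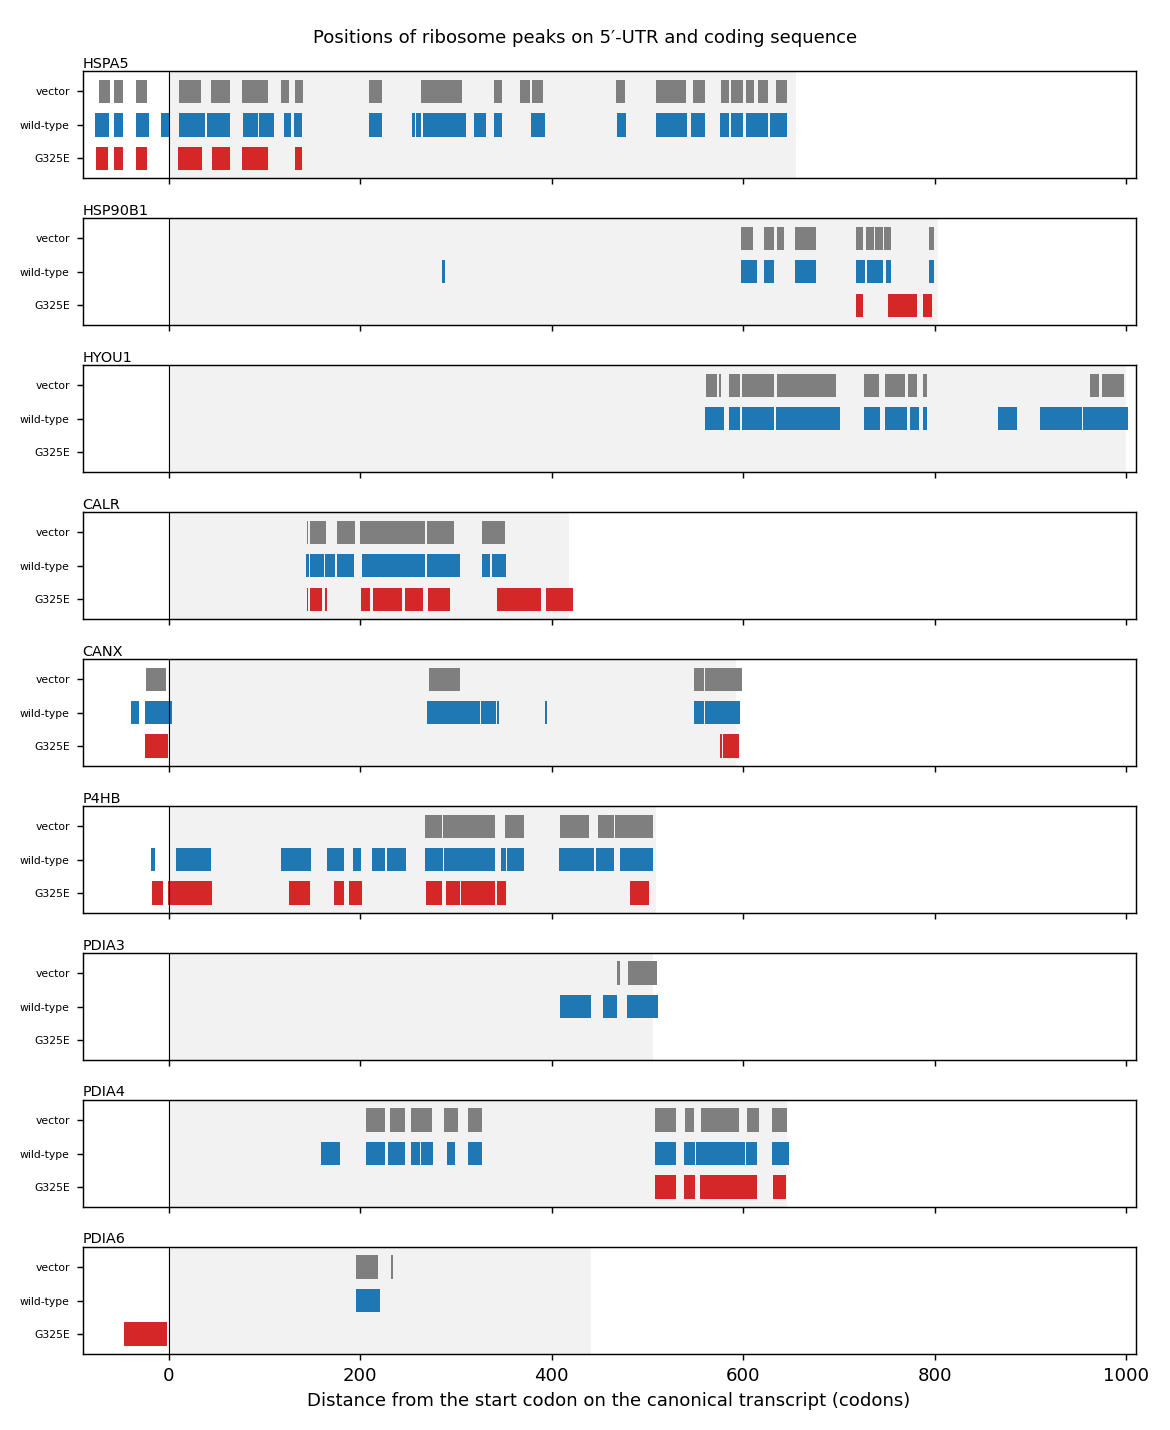
Positions of peaks on the 5′-UTR and coding sequence of each chaperone's canonical transcript, in codons from the start codon (vertical line), with the coding sequence shaded and blocks for the peaks of vector (grey), wild-type (blue) and G325E (red). HSPA5 peaks in G325E stopped at codon 136, HSP90B1, HYOU1 and PDIA3 had most peaks toward the 3′ end in every list that had any, and those of PDIA4 lay toward the 3′ end in G325E alone.

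CALR (calreticulin, the soluble lectin chaperone, ENSG00000179218, GRCh37 chromosome 19, 13049423 to 13055303, plus strand, 9 exons) had 8 peaks in vector, 12 in wild-type and 12 under G325E, all of the exon class. Besides PDIA6 it was the only chaperone whose scaled number was not lower in G325E, with a log2 ratio to wild-type of 0.35 (−0.94 to 1.63), the same as the median of all genes, and to vector of 0.10 (−1.31 to 1.60). Coverage of the coding sequence was 37.5%, 40.1% and 40.2%. In all 3 lists the first CALR peak was centred at codon 145. Vector peaks ended at codon 339 and wild-type peaks at 345, whereas G325E had further peaks at codons 370 (112 bases) and 408 (86 bases) of 417. The vector list skipped 1 number directly after its last CALR peak and the wild-type list 2, so whether those peaks were particular to G325E was not tested.

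CANX (calnexin, the membrane-bound lectin chaperone, ENSG00000127022, GRCh37 chromosome 5, 179125968 to 179158642, plus strand, 15 exons) had 11 peaks in vector, 17 in wild-type and 8 under G325E. The log2 scaled ratio of G325E was −0.74 to wild-type (−2.16 to 0.55) and −0.94 to vector (−2.46 to 0.51). Peaks of the exon class numbered 4, 9 and 2, and those of G325E, at codons 577 and 587 of 592, both overlapped peaks of the other lists. The vector list skipped 1 number between its peaks at codons 288 and 554, and the wild-type list 1 between 394 and 554. The part of skipped peaks in these counts was not tested. Peaks around codon 288, of 98 bases in vector and 102 in wild-type, had no counterpart in G325E. A 5′-UTR peak close to the start codon was present in all 3 lists, centred 40, 32 and 39 bases before it. The GC content around that peak was 80.6%, 83.9% and 83.9%, far above the 44.7% of the coding sequence.

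P4HB (PDI, the founding member of the disulfide isomerases, ENSG00000185624, GRCh37 chromosome 17, 79801042 to 79818411, minus strand, 11 exons) had the most peaks of any chaperone in wild-type and G325E, with 16 in vector, 35 in wild-type and 19 under G325E. The log2 scaled ratios of −0.54 to wild-type (−1.42 to 0.31) and −0.24 to vector (−1.27 to 0.82) did not pass 2-fold. Where the peaks lay differed more than their number. In vector, no coding peak was centred before codon 277 of 508. Wild-type had 7 coding peaks before it, from codon 26 on, and G325E had 4, at codons 22, 137, 178 and 195, each of which overlapped a wild-type peak. No number was skipped within the vector peaks of P4HB, but 2 were within those of wild-type. Between codons 362 and 482 the picture turned, with 6 vector and 6 wild-type coding peaks and 0 in G325E.

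The first P4HB coding peak in G325E was 137 bases long and covered the start codon, which no P4HB peak did in the other lists. The wild-type list skipped 1 number between an intron peak and its peak at codon 26, and 1 between a 5′-UTR and a promoter-TSS peak. The part of skipped peaks in the wild-type counts here was not tested. Peaks of the 5′-UTR class numbered 0 of 14 in vector, 2 of 25 in wild-type and 2 of 11 under G325E, or 0%, 8.0% and 18.2%. Both in wild-type lay on the strand opposite to the gene and both in G325E on its own strand. In the 3′-UTR, vector had 3 peaks, wild-type 4 and G325E 0. Vector coding peaks of P4HB that overlapped a G325E peak averaged 56.1% GC (SD 3.68, 5 peaks) and those that did not 62.9% (SD 7.84, 6 peaks), the opposite order to HSPA5.

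PDIA4 (ERp72, ENSG00000155660, GRCh37 chromosome 7, 148700154 to 148725597, minus strand, 10 exons) had 15 peaks in vector, 15 in wild-type and 10 under G325E. The log2 scaled ratio of G325E was −0.24 to wild-type (−1.56 to 1.01) and −1.07 to vector (−2.38 to 0.18). Peaks covered 29.0% of the coding sequence in vector, 33.4% in wild-type and 16.4% under G325E. The G325E peaks at codons 597, 598, 599 and 602 were 3, 1, 1 and 12 bases long, so the peak number hides part of this difference. In vector, 7 of 12 coding peaks lay in the first 50% of the coding sequence and in wild-type 9 of 14, but in G325E 0 of 9. Coding peaks of G325E lay between codons 519 and 638 of 645, and there the lists resembled each other, with peaks at codons 519, 544 and 576 in all 3. Vector peaks between codons 216 and 320 overlapped wild-type peaks and none in G325E. HSPA5 kept its 5′ peaks in G325E and PDIA4 its 3′ peaks. GC content around PDIA4 vector peaks with a G325E overlap was 54.8% (SD 4.56, 5 peaks) and without one 55.3% (SD 6.57, 7 peaks). The example peaks lay at codon 544 (chr7:148701178-148701207, 56.7% GC) and codon 269 (chr7:148709247-148709276, 43.3% GC), on the minus strand, further apart than these means.
PDIA4 codon 544, also in G325E: GatGGaCCCCaaGaaGGaCGtCCtCatCGa
PDIA4 codon 269, not in G325E: atGaCtaCaaCGGCCCaCGaGaaaaatatG

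PDIA3 (ERp57, the isomerase that works with calreticulin and calnexin, ENSG00000167004, GRCh37 chromosome 15, 44038636 to 44065476, plus strand, 13 exons) had 2 peaks in vector, 4 in wild-type and 0 under G325E. They lay at codons 470 and 495 in vector and from codon 416 to codon 495 of 505 in wild-type. At these numbers an absence in G325E is close to the floor of 3 peaks, and the upper end of the interval for its log2 ratio to wild-type was 0.94, above 0.

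PDIA6 (P5, which associates with HSPA5, ENSG00000143870, GRCh37 chromosome 2, 10923517 to 10952911, minus strand, 13 exons) had 2 peaks in vector, 1 in wild-type and 5 under G325E. In vector, coding peaks were centred at codons 207 and 233 of 440, the latter of 4 bases and on the strand opposite to the gene. PDIA6 had 1 coding peak in wild-type, at codon 208, and none in G325E. Its 5 G325E peaks were 2 in the promoter-TSS class, on the strand of the gene, and 3 short intron peaks of 2 to 11 bases on the opposite strand. The longer of the promoter-TSS peaks, of 134 bases, was centred 72 bases before the start codon with 87.1% GC around it. The call as higher against wild-type (log2 ratio 2.67, −0.49 to 8.23) therefore rested on no coding peak. The vector list skipped 2 numbers directly on the 5′ side of its PDIA6 peaks.

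Per kilobase of coding sequence, HSPA5 had the most vector coding peaks of the family, 9.67, followed by P4HB at 7.20, CALR at 6.38, PDIA4 at 6.19 and HYOU1 at 5.0. HSP90B1 stood at 4.15, CANX at 2.25, PDIA6 at 1.51 and PDIA3 at 1.32. The values of HSP90B1 and PDIA6 each include 1 peak on the strand opposite to the gene. In wild-type, P4HB led with 12.4, followed by HSPA5 with 11.7 and CALR with 9.57. In G325E the order changed, with CALR at 9.57, P4HB at 5.89 and PDIA4 at 4.64, and HSPA5 had 2.04, close to HSP90B1 at 2.07. CALR was the only one of the 9 whose coding peaks per kilobase were not lower in G325E than in wild-type. Neighbours in these orders often differed by 1 or 2 peaks, and with 1 library per construct they cannot be ranked beyond counting error.

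Region shares were compared next, the comparison that the study's peak annotation serves. Over the 9 chaperones, 3 of 88 peaks in the 3 transcript regions were of the 5′-UTR class in vector (3.41%, 1.17 to 9.55), 6 of 120 in wild-type (5.0%, 2.31 to 10.5) and 5 of 47 under G325E (10.6%, 4.63 to 22.6). G325E was 5.64 percentage points above wild-type (Newcombe interval −2.49 to 17.9) and 7.23 above vector (−1.36 to 19.4), and both intervals included 0. All genes gave 9.07%, 8.85% and 19.2%. Of 5 chaperones with at least 5 region peaks in both lists, 2 (HSPA5 by 21.3 points and P4HB by 10.2) had a 5′-UTR share in G325E that exceeded wild-type by at least 10 points and 0 a lower one, against 13.0% and 7.34% of 368 genes. Against vector the same 2 were higher, by 23.8 and 18.2 points, and 0 lower, against 12.6% and 4.46% of 269 genes. From vector to wild-type, 0 of 7 were higher and 1 lower (CANX, with 1 of 5 and 1 of 11 peaks), against 10.1% and 4.7% of 447 genes. The other 3 chaperones in both G325E comparisons, HSP90B1, CALR and PDIA4, had no 5′-UTR peak in any list.

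Peaks of the promoter-TSS class, which the annotation assigns near a transcription start before it considers the 5′-UTR, made up 4.9% of chaperone peaks in vector (5 of 102), 7.8% in wild-type (11 of 141) and 17.9% under G325E (12 of 67). These belonged to HSPA5, CANX, P4HB and PDIA6. Counting them as 5′-UTR, together with peaks near a transcription end as 3′-UTR, put G325E 15.8 points above wild-type (3.75 to 29.3) and 20.3 above vector (7.88 to 33.5), and both intervals then lay above 0. Over all genes the promoter-TSS class held 23.0%, 21.1% and 34.7%, so it was highest in G325E there as well. The combined measure was not taken over all genes, and its rise cannot be called particular to the chaperones.

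The chaperones' coding peaks lay later in the message than those of other genes. In the first 25% of the coding sequence stood 6 of 83 chaperone coding peaks in vector (7.23%, 3.36 to 14.9), 9 of 110 in wild-type (8.18%, 4.36 to 14.8) and 5 of 41 under G325E (12.2%, 5.32 to 25.5). Over all genes these shares were 28.3%, 26.4% and 43.0%. The intervals of the chaperones lay below the values of all genes in each list. Within the family, G325E was 4.01 points above wild-type (−5.54 to 17.9) and 4.97 above vector (−5.32 to 18.9), not distinguishable from 0 at these numbers. Mean position, from 0 at the start codon to 1 at the stop codon, was 0.681, 0.631 and 0.661 for chaperones and 0.490, 0.501 and 0.392 for all genes. HSPA5 alone supplied 6 of 6, 7 of 9 and 4 of 5 of the early peaks. A peak over the start codon was found in 0 of 9 chaperones in vector, 1 in wild-type (HSPA5) and 1 of 7 under G325E (P4HB), against 25.4%, 24.8% and 37.9% of genes with a peak in those lists.

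Finally, the lists were overlapped peak by peak. Of the 67 chaperone peaks in G325E, 49 shared at least 1 base with a wild-type peak (73.1%, 61.5 to 82.3) and 38 with a vector peak (56.7%, 44.8 to 67.9), as did 93 of 141 wild-type peaks with a vector peak (66.0%, 57.8 to 73.3). Over all genes the overlaps were 47.6%, 35.7% and 41.9%. In the other direction, 25 of 83 chaperone coding peaks in vector overlapped a G325E peak (30.1%, against 49.0% of all genes' coding peaks) and 31 of 110 in wild-type (28.2%, against 32.9%). The share ranged from 87.5% of vector coding peaks in CALR (7 of 8) through 45.5% in P4HB and 41.7% in PDIA4 to 21.1% in HSPA5 (4 of 19) and 0% in HYOU1 (0 of 15). Over all genes, coding peaks that overlapped a G325E peak had a mean GC content of 63.6% in vector and those that did not 54.6%, while for the chaperones these were 52.0% (SD 7.53, 25 peaks) and 50.6% (SD 10.5, 58 peaks). The part of GC content in the peak numbers was not tested.

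**Figure D4:**
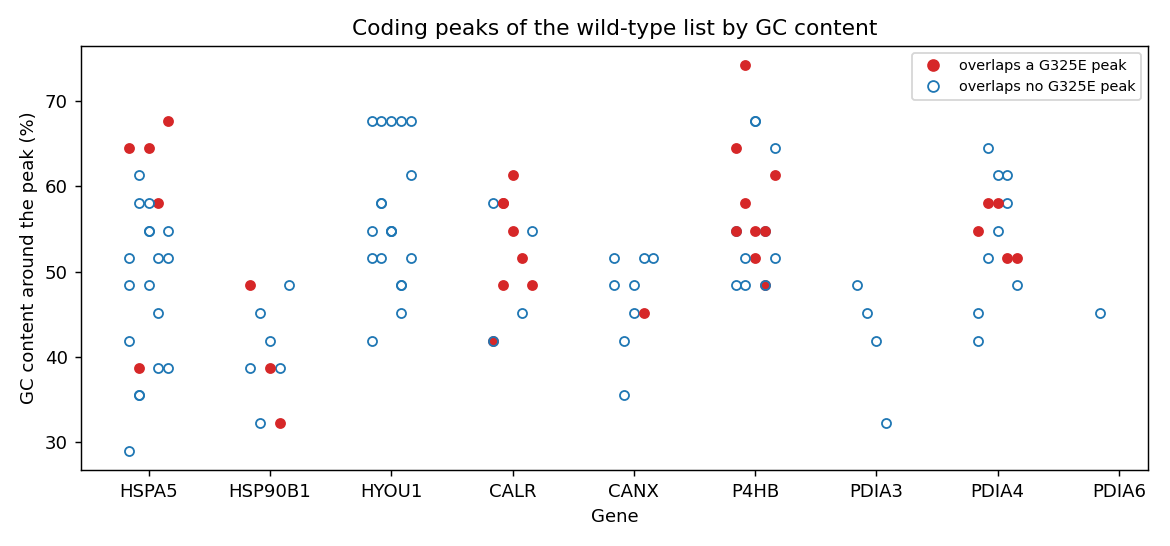
GC content of the 31 bases around each wild-type coding peak of the chaperones (vertical axis, %), by gene. Filled red points overlapped a G325E peak and open blue points did not, and points are spread sideways only to separate them. In HSPA5 the overlapping peaks averaged 58.7% against 47.7% for the rest, whereas all 19 HYOU1 peaks were open points with a mean of 56.5%.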

How the data were processed

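Ribosome-protected fragments came from HEK293T cells, 1 library per construct, each assigned by its title. The authors trimmed reads with cutadapt, aligned them with BWA 0.5.5 to hg19 (NCBI Build 37) plus RefSeq, junction and AceView sequences, removed duplicates, called peaks per sample from coverage, merged and reviewed them, and annotated them with HOMER (version not stated). The deposited positions carry no coverage, count or score. Listed starts lay 1 base after exon starts, so each interval was read from 1 base earlier.

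Peaks went to the gene of their RefSeq id, through the id and name pairs of the lists, then a RefSeq gene table, then the listed gene name. Positions used GENCODE release 44 canonical transcripts lifted to GRCh37, and GC content 31 bases around each midpoint. The GC content beside the position of a printed example is that of its printed bases. Peak numbers were scaled to the mean list length. Genes were called at 2-fold with a peak in both lists, and 5′-UTR shares at 10 points with at least 5 region peaks in both. Intervals are 95% Wilson (shares), Newcombe (differences) and exact conditional binomial (ratios). Named genes were the 9 chaperones, DDX3X, at most 3 other endoplasmic reticulum genes per direction and comparison (called, at least 5 peaks in the higher list), and the 5 genes nearest the chaperones' pooled pattern among those with at least 15 peaks. Members and lists were chosen with earlier results of these data known. Scripts were tested on simulated data. Alternatives covered gene assignment, strand, peak length, region classes, scaling, position, overlap and leaving out P4HB or HSPA5. Scripts ran in Python 3.11.15 (pandas 2.3.3, pysam 0.24.0, scipy 1.17.1, numpy 2.4.6, matplotlib 3.10.9).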

Additional observations from a re-analysis of the deposited data

How the results depend on the processing

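No paired analysis was possible because each construct had 1 library and the labels give no replicate numbers, and for the same reason no replicate could be left out. Across 13 settings the chaperones' pooled log2 ratio of G325E to wild-type ranged from −1.07 to −0.36, the latter with scaling by the 3 transcript regions, where its interval included 0. That of G325E to vector ranged from −1.32 to −0.61, the upper value both with no scaling and with scaling by the median of per-gene ratios. The ratio of wild-type to vector became 0.24 under median scaling and 0.47 with no scaling, so its direction rests on how list length is treated. The 5′-UTR share of G325E exceeded that of vector by 4.28 to 20.3 points, and that of wild-type by 4.12 to 15.8 points, both highest with promoter-TSS peaks counted as 5′-UTR and TTS peaks as 3′-UTR, while wild-type minus vector ranged from −0.05 to 4.47 points. With a window of 15 bases around the start codon, 1 chaperone in vector, 2 in wild-type and 3 under G325E had a peak there. Overlaps moved by less than their intervals in all 4 settings. The settings for junction-split peaks, listed starts, id pairs of the lists alone, coding peaks only and HSPA5 left out were chosen after seeing the data. With id pairs of the lists alone HSP90B1 and PDIA3 lose all their peaks. Peak numbers of 1 to 5 per gene limit statements on PDIA3 and PDIA6.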

Other observations

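Beyond the 9 chaperones, 64 other genes of endoplasmic reticulum folding, translocation, degradation and stress signalling were listed, and 36 of them had a peak. They held 151 peaks in vector, 248 in wild-type and 134 under G325E, or 1.35%, 1.24% and 0.855% of the lists, so their share was lowest in G325E as well. From wild-type to G325E, 4 of 19 were at least 2-fold higher and 4 lower after scaling, against 20.2% and 10.7% of all genes. These counts leave out 15 genes with wild-type peaks and 0 in G325E (44.1% of those with wild-type peaks, against 41.3% over all genes), with OS9 (25 wild-type peaks) and RCN1 (13) the highest, and MOGS, with 0 and 6. These 3 were named after their values were seen. Among those higher were RCN2, a calcium-binding protein of the reticulum (5 peaks against 2), SERP1, which associates with the translocon (5 against 2), and TXNDC5, a disulfide isomerase (19 against 11). Among those lower were PPIB, a prolyl isomerase (3 against 12), SEC62, a translocation factor (2 against 8), and LMAN2, a cargo lectin (4 against 13). From vector to G325E, 1 of 18 was higher (TXNDC5, 19 against 6) and 4 lower, among them LMAN2 (4 against 12) and PPIB (3 against 6), against 11.3% and 21.3% of all genes. Another 8 had vector peaks and 0 in G325E (30.8%, against 29.0%). From vector to wild-type, 2 of 25 were higher, SEC63 (14 against 3) and SEC62 (8 against 2), and 6 lower, among them SERP1 (2 against 5), FKBP10 (7 against 9) and CNPY3 (4 against 5), against 5.38% and 21.0% of all genes.

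After scaling, the chaperones' peaks divided as 44.5% in vector, 34.6% in wild-type and 20.9% under G325E. Of 1119 genes with at least 15 peaks, those whose 3 shares lay closest were HNRNPA2B1 (11, 15 and 7 peaks), EIF4A3 and RPS26 (8, 11 and 5 each), and HIST1H4E and LAMTOR1 (6, 8 and 4 each). This nearness was measured over 3 libraries. Of the chaperone peaks, 5.88% in vector, 7.80% in wild-type and 8.96% under G325E lay antisense to their gene, against 17.8%, 17.7% and 24.8% over all genes. Many chaperone peaks ended at an exon boundary, 44 of 102 in vector, 59 of 141 in wild-type and 17 of 67 under G325E, so that 1 stretch of coverage across a junction can count as 2 peaks.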
